A study of Mus musculus with 6 samples.

Results

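Chemokines and their receptors were followed in the back wall of the mouse eye (sclera and choroid together with the retinal pigment epithelium, RPE) at an age of 12 months. Every gene whose single annotated symbol follows the chemokine naming scheme was taken (Ccl, Cxcl, Cx3cl1 and Xcl1 for ligands, Ccr, Cxcr, Cx3cr1 and Xcr1 for receptors, Ackr for atypical receptors), with its brightest probe set. This gave 55 of 22180 measured genes: 34 ligands, 17 conventional receptors and 4 atypical receptors. Ccl19, Ccl21a, Ccl21b and Ccl27b were left out because each lies only on probe sets that the annotation shares among several gene copies. The animals were heterozygous 5XFAD mice (3 arrays) and their non-transgenic wild-type littermates (3 arrays), all untreated and of the same age. 5XFAD mice carry mutant human amyloid precursor protein and presenilin transgenes, driven by a Thy1 promoter that is active mainly in neurons. Nothing in the labels ties a sample to an animal of its own. The p-values therefore rest on the variation among these 6 samples, part of which may be technical.

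Chemokines are small secreted proteins that guide leukocytes along concentration gradients. They are grouped by the spacing of their first cysteines (CC, CXC, CX3C and XC) and act through receptors that couple to inhibitory G proteins. Atypical receptors bind chemokines without that coupling, and some of them remove chemokines from the tissue. In the outer eye, signalling from Ccl2 to Ccr2 is known for bringing monocytes into the choroid. Fractalkine, encoded by Cx3cl1, acts on Cx3cr1, a receptor of microglia and resident macrophages.

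The tissue held the cells named on its label and others besides. Of the marker lists, 14 of 15 RPE genes, 12 of 12 endothelial genes, 10 of 10 fibroblast and sclera genes and 18 of 19 macrophage and microglia genes lay above the array median on all 6 arrays. Only 3 of 13 T and NK cell genes and 1 of 9 neutrophil genes did so. The RPE list means lay apart, at 10.10 to 10.16 in 5XFAD and 10.37 to 10.51 in wild type (log2 intensity). Of its 15 genes 10 were lower and 1 higher at an unadjusted p under 0.05 (limma), where 3.39% and 2.89% of all genes were. List means of the surface epithelium genes were 6.48 to 7.12 in 5XFAD and 5.70 to 5.76 in wild type, and those of the skeletal muscle genes 6.04 to 7.21 in 5XFAD and 5.48 to 6.70 in wild type (log2 intensity). Of 12 surface epithelium genes 7 were higher and 0 lower at an unadjusted p under 0.05 (limma). After adjustment 4 of them passed as higher (Krt15, Krt4, Krt13 and Krt6a, limma), where 5 of all 22180 genes did. Of 15 skeletal muscle genes 5 were higher and 0 lower at an unadjusted p under 0.05 (limma). In such whole tissue, fewer cells of a type and less RNA per cell cannot be told apart.

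Of the 55 members, 23 lay above the array median on all 6 arrays, 12 on 1 to 5 arrays and 20 on none. The 23 became 16 with the median taken over the named genes and 13 with the 60th percentile of all probe sets. The array median is the middle of all 33793 probe sets of an array, and it lay between 5.59 and 5.71 (log2 intensity). Over all measured genes 52.7% lay above it on all 6 arrays and 38.2% on none, against 41.8% and 36.4% of the members. Among ligands 16 of 34 were above on every array, and among conventional receptors 5 of 17. Of the 9 CC receptors, Ccr7 alone was above the median throughout and 6 were below it throughout. Brightness depends on each probe set's affinity, so the median marks a level and not a detection limit, and members are not ranked against each other by it.

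**Figure D1:**
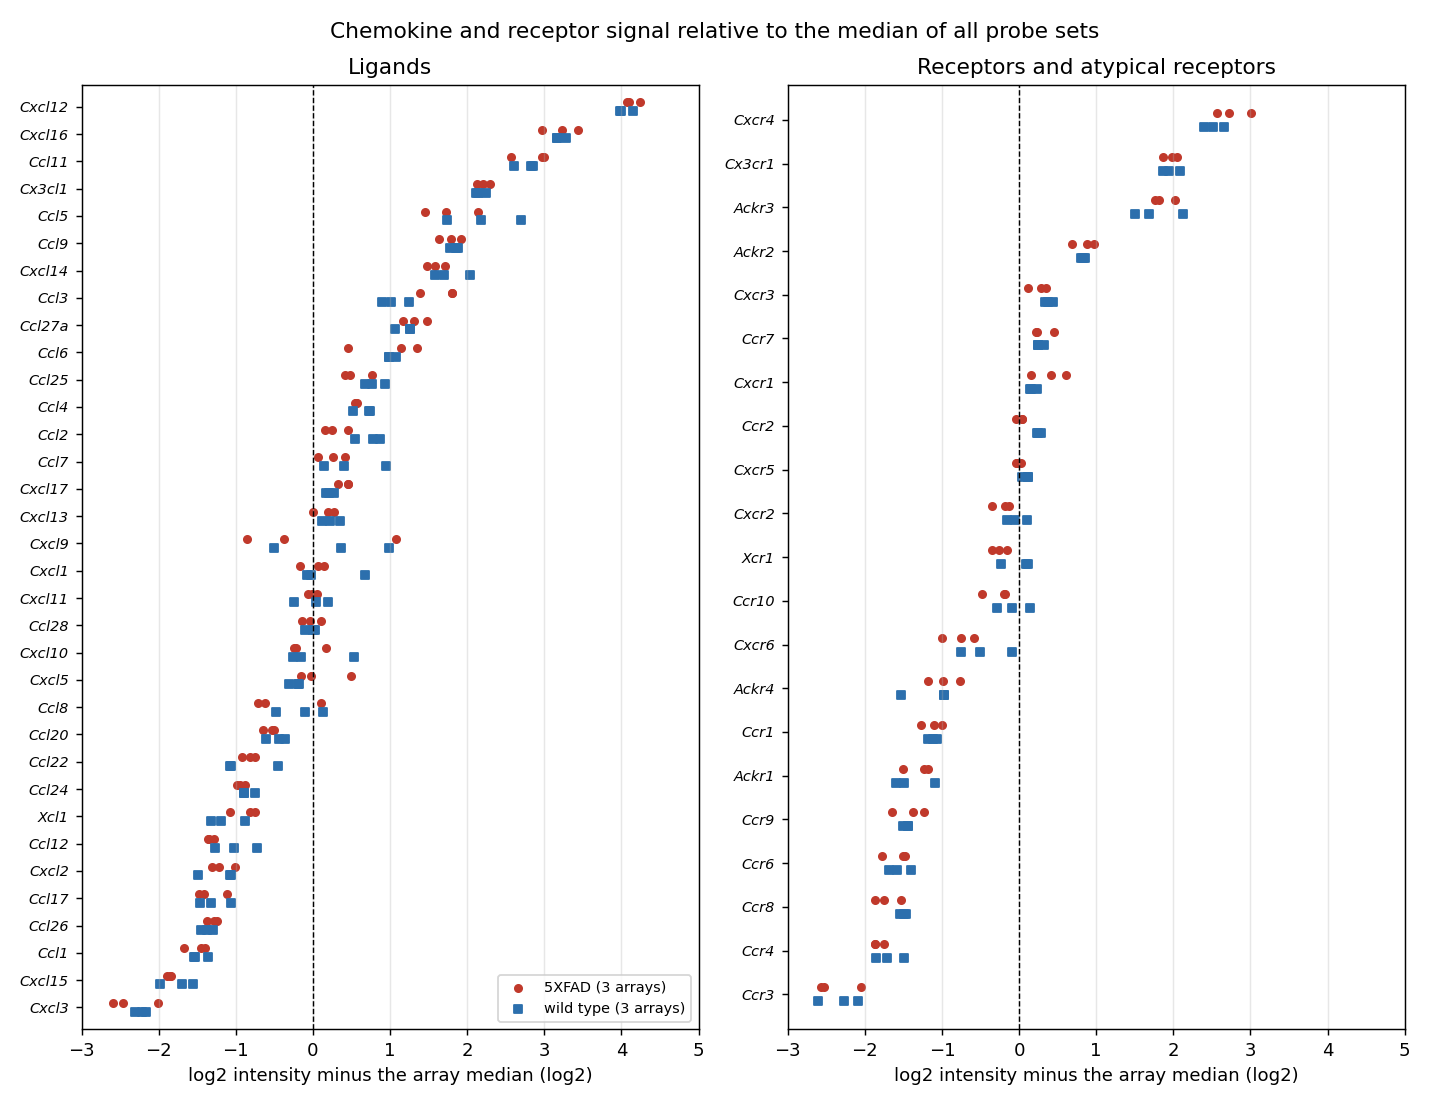
Log2 intensity minus the array's median over all probe sets (x axis) for each of 34 ligands (left) and 21 receptors and atypical receptors (right), with 1 point per array (red circles 5XFAD, blue squares wild type). Right of the dashed line a value lies above its array's median, as all 6 values do for 23 of the 55 members.

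Ligands were set beside their textbook receptors in 15 groups. Ligand and receptor were both above the median on every array in 2 of these groups, the CXCL12 group and the fractalkine pair. A ligand without its receptor was above in 7 groups, a receptor without a ligand in 2 (Cxcr3, and Cxcr1 of the pair Cxcr1 and Cxcr2), and neither side in 4.

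Cxcl12, which retains stem cells and leukocytes in tissue, read 9.75, 9.90 and 9.75 in 5XFAD and 9.67, 9.75 and 9.69 in wild type. Its receptor gene Cxcr4 read 8.66, 8.38 and 8.24 in 5XFAD and 8.34, 8.10 and 8.12 in wild type. Ackr3, which scavenges the same ligand, read 7.41, 7.68 and 7.49 in 5XFAD and 7.36, 7.72 and 7.21 in wild type. The groups met almost exactly in Cxcl12, where only 0.0010 lay between the lowest 5XFAD and the highest wild-type array, and they overlapped in Cxcr4 and Ackr3. All 3 differences were positive, at 0.10 ± 0.10 for Cxcl12, 0.24 ± 0.13 for Cxcr4 and 0.10 ± 0.14 for Ackr3 (5XFAD minus wild type, log2, ± SE). None passed after adjustment (Cxcr4 came nearest, with a limma adjusted p of 0.87), and each value depended on single arrays. The difference was 0.05 for Cxcl12 without 5XFAD replicate 2, 0.13 for Cxcr4 without 5XFAD replicate 1, and -0.01 for Ackr3 without wild type replicate 3.

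Cx3cl1 and Cx3cr1 were the most even pair. Cx3cl1, a membrane-bound chemokine of neurons and endothelium, read 7.85, 7.79 and 7.98 in 5XFAD and 7.82, 7.83 and 7.83 in wild type. Cx3cr1 read 7.69, 7.53 and 7.67 in 5XFAD and 7.62, 7.68 and 7.58 in wild type. The wild-type arrays lay within the 5XFAD range for both genes. The difference was 0.04 for Cx3cl1, with a 95% interval of -0.18 to 0.27, and 0.00 for Cx3cr1, with a 95% interval of -0.22 to 0.22 (limma, adjusted p = 0.97 and 0.9985).

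For the monocyte receptor Ccr2 and its 3 ligands the differences were negative in 4 of 4 genes, and none passed after adjustment. The same held for 4 of 4 genes of the Cxcr3 group and 3 of 3 of the Ccr8 group, where 52.8% of all genes had a negative difference. In these groups Cxcl11 differed by only -0.0024, and Cxcl9, Cxcl10 and Ccl1 changed sign with 1 array left out. Ccl2, the main monocyte attractant, read 6.10, 5.82 and 5.93 in 5XFAD and 6.22, 6.37 and 6.59 in wild type. Ccl12, a further Ccr2 ligand of the mouse, read 4.36, 4.31 and 4.34 in 5XFAD and 4.65, 4.87 and 4.45 in wild type, below the array median throughout. Every 5XFAD array lay below every wild-type array for both genes.

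Ccr2 itself read 5.61, 5.70 and 5.71 in 5XFAD and 5.90, 5.87 and 5.96 in wild type. Its groups did not overlap either, and it lay near the array median, with 2 of 3 5XFAD arrays and 3 of 3 wild-type arrays above it. Ccl7, the remaining ligand of the group, read 5.71, 6.08 and 5.94 in 5XFAD and 5.82, 5.99 and 6.66 in wild type, with overlapping groups.

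The differences were -0.44 ± 0.13 for Ccl2 (0.736-fold), -0.32 ± 0.12 for Ccl12 (0.801-fold), -0.23 ± 0.09 for Ccr2 (0.850-fold) and -0.25 ± 0.20 for Ccl7 (0.844-fold). Unadjusted p-values from limma were 0.0068 for Ccl2, 0.026 for Ccl12, 0.0345 for Ccr2 and 0.26 for Ccl7. After Benjamini-Hochberg adjustment over all genes the limma p-values were 0.53, 0.73, 0.75 and 0.93 in the same order, so that no member of the group passed. The Ccl7 difference was 0.01 without wild type replicate 3, while Ccl2, Ccl12 and Ccr2 stayed negative with each array left out. The Ccr2 spread within groups was among the narrowest 10% of all genes, and limma widened it with the prior. In the same arrays the macrophage and microglia list means were 8.48 to 8.83 in 5XFAD and 8.49 to 8.56 in wild type, with overlapping groups, and 3 of the 19 genes were higher and 0 lower at an unadjusted p under 0.05. Within that list, in 2 genes chosen after their values were seen, Fcer1g read 10.84, 10.66 and 10.21 in 5XFAD and 10.11, 9.99 and 10.07 in wild type, while Csf1r read 9.31, 9.08 and 9.13 in 5XFAD and 9.35, 9.43 and 9.35 in wild type. Among the other lists that leaned the same way as Ccl2 were RPE, as given above, photoreceptors, and T and NK cells. In the photoreceptor list 10 of 11 differences were negative, and 0 genes had an unadjusted p under 0.05 (limma). Its list means overlapped, at 5.29 to 6.24 in 5XFAD and 5.37 to 6.31 in wild type. The T and NK cell list means overlapped, and 11 of 13 differences were negative. Of these 13 genes 4 were lower and 0 higher at an unadjusted p under 0.05 (limma). Over all genes 2.89% were higher and 3.39% lower at that threshold (limma), and 52.8% had a negative difference. The part of these lists in the Ccl2, Ccl12 and Ccr2 values was not tested.

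Ccl3 had the largest difference of any member. This ligand of Ccr1, made by activated macrophages, microglia and other leukocytes, read 7.45, 7.47 and 7.06 in 5XFAD and 6.68, 6.83 and 6.60 in wild type. The lowest 5XFAD array exceeded the highest wild-type array by 0.23. The difference was 0.62 ± 0.13 (1.54-fold), with an unadjusted limma p of 0.0011 and a Benjamini-Hochberg adjusted p of 0.34. It ran from 0.55 to 0.75 with each array left out, and its lowest adjusted p under any alternative was 0.19 (limma). The macrophage and microglia list had a positive difference in 16 of 19 genes, where 47.2% of all genes had one, and its list means overlapped. Named after their values were seen, Fcer1g at 0.51, Itgam at 0.25 and Ctss at 0.22 were apart and higher in 5XFAD. Csf1r at -0.21 was apart and lower. The part of that list in the Ccl3 value was not tested.

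Ccl4, next to Ccl3 on chromosome 11 and often induced with it, did not share its pattern. It read 6.19, 6.24 and 6.24 in 5XFAD and 6.42, 6.11 and 6.44 in wild type, a difference of -0.10 ± 0.11 with overlapping groups (limma, adjusted p = 0.95). Receptor Ccr1 lay below the array median on every array, at 4.38 to 4.66 in 5XFAD and 4.49 to 4.60 in wild type.

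The other Ccr1 ligands did not separate the groups. Ccl6, a rodent chemokine of myeloid cells, read 7.00, 6.81 and 6.13 in 5XFAD and 6.66, 6.67 and 6.71 in wild type. Ccl9, its neighbour, read 7.44, 7.59 and 7.31 in 5XFAD and 7.54, 7.47 and 7.50 in wild type. For both genes the wild-type arrays lay within the 5XFAD range. Ccl5, released by T cells and other leukocytes, read 7.78, 7.39 and 7.13 in 5XFAD and 7.86, 8.29 and 7.45 in wild type. Its difference of -0.43 ± 0.22 was close in size to that of Ccl2, but the arrays overlapped (limma, adjusted p = 0.85), and it was -0.22 without wild type replicate 2. The T and NK cell list had a negative difference in 11 of 13 genes, where 52.8% of all genes had one. That list's part in the Ccl5 value was not tested.

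The CC ligand genes on chromosome 11 lie in 2 blocks in which no other protein-coding gene of the RefSeq annotation comes between them. In the block of Ccl2, Ccl7, Ccl11, Ccl12, Ccl8 and Ccl1, in that order, the differences were -0.44, -0.25, 0.09, -0.32, -0.26 and -0.03. Ccl11 was the 1 positive gene of the 6. In the block of Ccl5, Ccl9, Ccl6, Ccl3 and Ccl4 the differences were -0.43, -0.05, -0.03, 0.62 and -0.10. Ccl3 was the 1 positive gene of these 5, so both blocks held neighbours of opposite sign.

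Promoters of Ccl3 and Ccl12 are shown because these genes had differences of opposite sign in the 2 blocks, each with an unadjusted p under 0.05 (limma). No promoter of Ccl2, which has the larger difference in its block, was used here. The window runs from 250 bases before the annotated start to 50 bases from it on (RefSeq, GRCm38.p6), 5′ to 3′ on the gene's strand, with matches to the searched motifs in capitals. The motifs, searched on both strands and chosen with these sequences known, were a 9-letter and a 10-letter kappa B motif (GGG and TTCC with 2 or 3 free bases between them, the site of NF-kappa B), ISRE (TTTC, 2 free bases, TTTC, an interferon response element), GAS (TTC, 3 free bases, GAA, a STAT site), AP-1 (TGANTCA) and the TATA box (TATAAA). The only match in the pair was a TATA box in Ccl12, at bases -31 to -26 from the annotated start. None of the 6 motifs occurred in the Ccl3 window, which says nothing of the factors that bind there.
Ccl3 (chr11:83649329-83649628, minus strand): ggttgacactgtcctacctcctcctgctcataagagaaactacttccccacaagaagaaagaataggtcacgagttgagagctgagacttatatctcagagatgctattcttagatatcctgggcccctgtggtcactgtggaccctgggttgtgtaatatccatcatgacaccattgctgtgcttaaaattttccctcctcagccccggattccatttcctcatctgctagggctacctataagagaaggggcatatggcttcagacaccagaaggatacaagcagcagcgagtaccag
Ccl12 (chr11:82101595-82101894, plus strand): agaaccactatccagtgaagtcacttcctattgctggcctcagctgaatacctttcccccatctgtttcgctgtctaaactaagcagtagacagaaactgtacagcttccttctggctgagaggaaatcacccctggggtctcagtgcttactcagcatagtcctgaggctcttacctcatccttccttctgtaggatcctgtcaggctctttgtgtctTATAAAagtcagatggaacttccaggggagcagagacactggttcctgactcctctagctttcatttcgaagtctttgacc

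Of all 55 members, 0 passed the adjusted threshold of 0.05 in limma, where 0.0225% of all genes did. An unadjusted p under 0.05 was found for 4 members, where 6.28% of all genes had one, and an unadjusted p under 0.01 for 2 (Ccl3 and Ccl2), where 1.64% had one. At an unadjusted p under 0.05, 1 member was higher in 5XFAD (Ccl3, where 2.89% of all genes were) and 3 were lower (Ccl2, Ccl12 and Ccr2, 5.45% of the members, where 3.39% of all genes were). Groups did not overlap in 8 members (11.3% of all genes), in 4 members higher in 5XFAD (7.27%, against 4.72% of all genes) and in 4 lower (7.27%, against 6.62% of all genes). These counts rest on few genes. The differences were positive in 23 members and negative in 32, with a median of -0.05, beside a median of -0.01 over all genes. Receptors had a median of -0.10, with 11 of 17 negative, and ligands one of -0.05, with 21 of 34 negative. All 4 atypical receptors had a positive difference, from 0.03 to 0.19, where 47.2% of all genes had a positive one and 52.8% a negative one. None of these 4 passed (limma, adjusted p from 0.93 to 0.98), and the Ackr3 difference was -0.01 without wild type replicate 3.

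**Figure D2:**
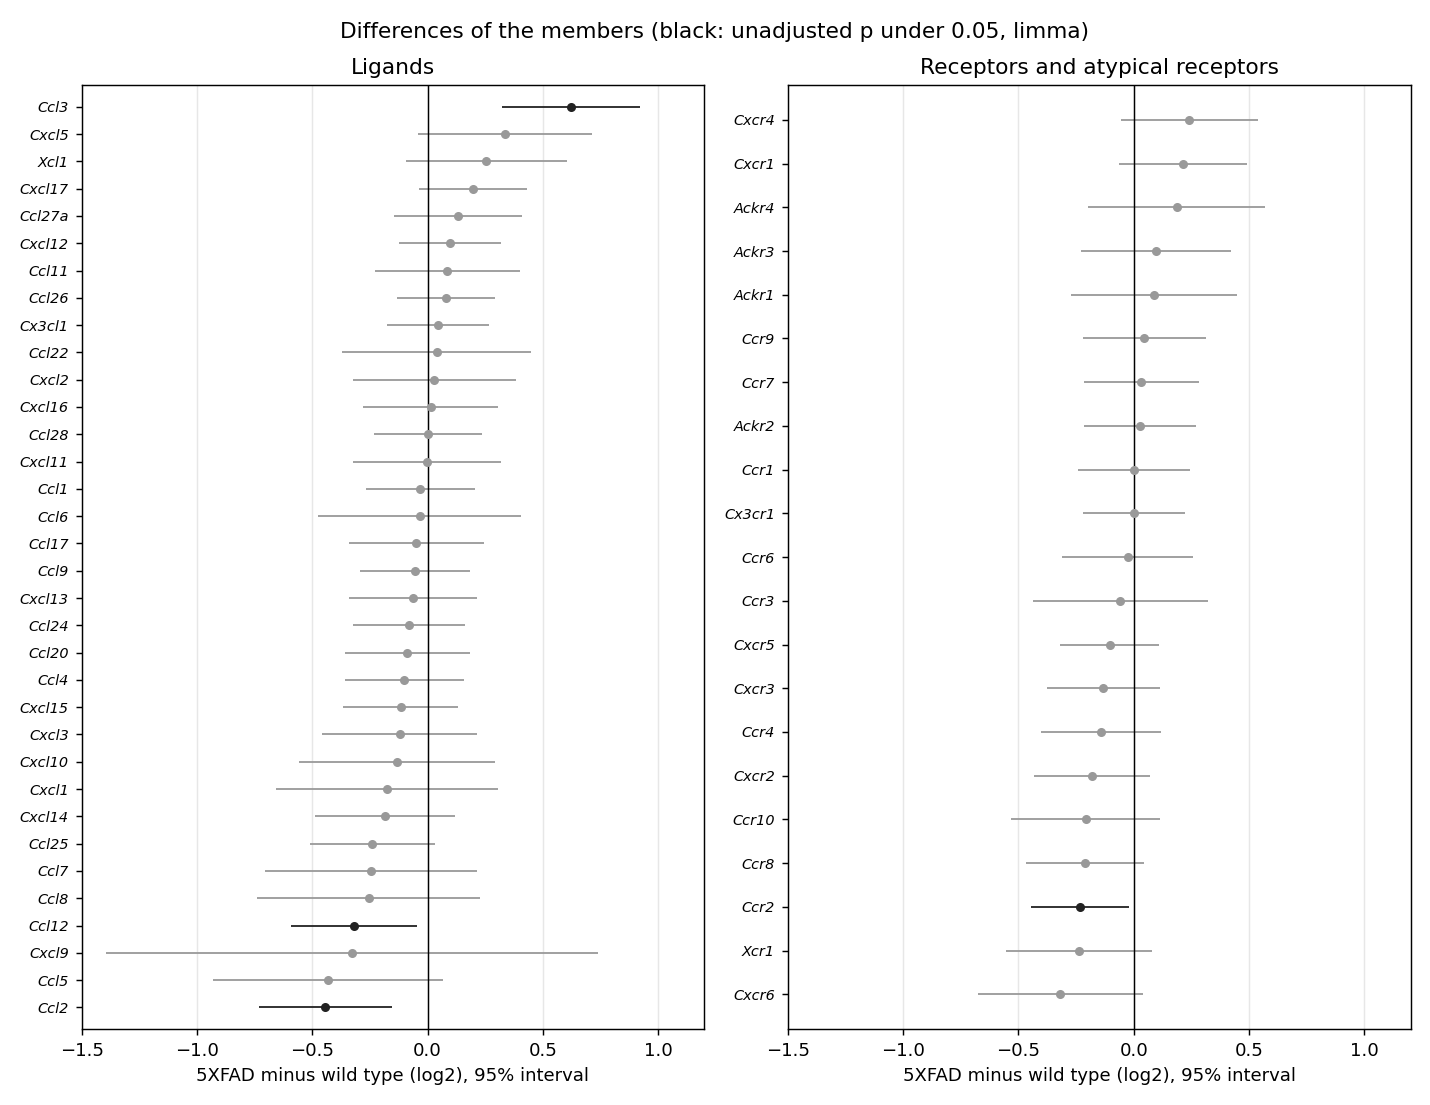
Difference 5XFAD minus wild type (x axis, log2) of each ligand (left) and each receptor or atypical receptor (right), with its 95% interval from limma. The intervals of Ccl3, Ccl2, Ccl12 and Ccr2, drawn in black, leave out 0, and 0 of the 55 members passed after adjustment over all genes.

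Besides Cxcl12, 3 further members had groups that did not overlap, with small gaps. Cxcl5, a neutrophil attractant, read 5.62, 6.16 and 5.53 in 5XFAD and 5.50, 5.28 and 5.52 in wild type. Cxcl17, a chemokine of mucosal epithelia, read 6.10, 5.99 and 6.14 in 5XFAD and 5.95, 5.76 and 5.92 in wild type. Cxcr5, the B cell receptor for Cxcl13, read 5.67, 5.64 and 5.63 in 5XFAD and 5.72, 5.71 and 5.83 in wild type.

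The gap between the closest arrays was 0.0040 for Cxcl5, 0.035 for Cxcl17 and 0.035 for Cxcr5, and in Cxcl5 it was 5XFAD replicate 2 that stood high. The differences were 0.34 ± 0.17 for Cxcl5, 0.20 ± 0.10 for Cxcl17 and -0.10 ± 0.09 for Cxcr5, and none passed (limma, Benjamini-Hochberg adjusted p from 0.84 to 0.93). Without 5XFAD replicate 2 the Cxcl5 difference was 0.14. The list means of the surface epithelium markers separated the groups and were higher in 5XFAD, as Cxcl17 was. Of the 12 markers 9 had a positive difference and 3 (Aldh3a1, Dsp and Perp) a negative one, where 47.2% of all genes had a positive one. The part of this list in the Cxcl17 value was not tested.

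**Figure D3:**
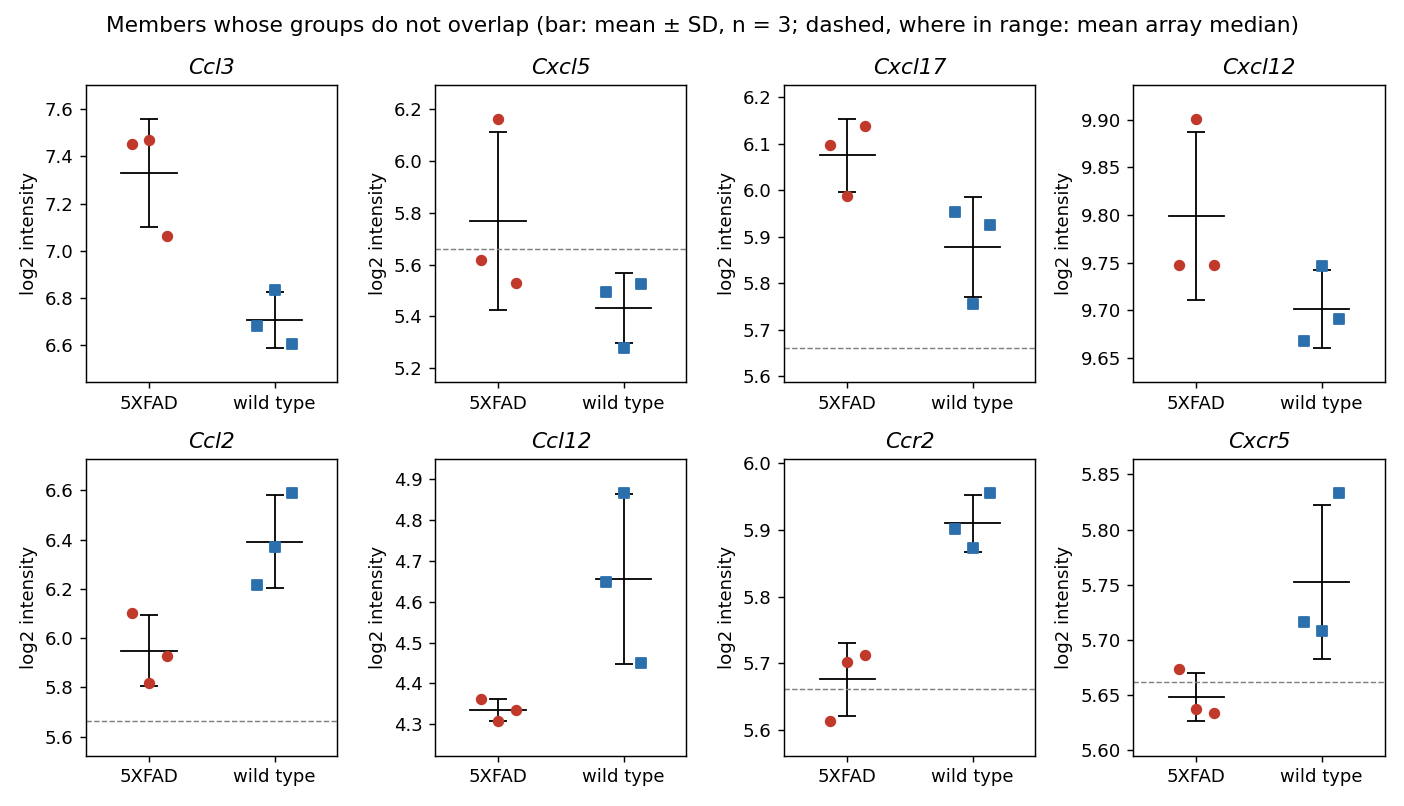
Log2 intensity (y axis) of the 8 members whose groups did not overlap, with 1 point per array (5XFAD left, wild type right) and the mean ± SD of 3 arrays. In the upper row (Ccl3, Cxcl5, Cxcl17 and Cxcl12) the 5XFAD arrays lie above, and in the lower row (Ccl2, Ccl12, Ccr2 and Cxcr5) they lie below, with the widest gap, 0.23, in Ccl3.

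Remaining ligands above the median on every array showed overlapping groups. Cxcl16, a membrane-bound chemokine that also takes up oxidised lipoprotein, read 9.09, 8.90 and 8.65 in 5XFAD and 8.96, 8.76 and 8.88 in wild type. Its receptor gene Cxcr6, of T and NK cells, lay below the median on every array, at 5.07, 4.67 and 4.93 in 5XFAD and 5.17, 5.50 and 4.96 in wild type. The Cxcr6 difference of -0.32 ± 0.16 was close in size to that of Ccl12, but the arrays overlapped (limma, adjusted p = 0.84), and it was -0.17 without wild type replicate 2. The part of the T and NK cell genes in this value was not tested.

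Ccl11, the eosinophil attractant eotaxin, read 8.21, 8.66 and 8.65 in 5XFAD and 8.53, 8.42 and 8.31 in wild type. Its receptor gene Ccr3 was dim, at 3.08 to 3.61 in 5XFAD and 3.11 to 3.58 in wild type. Cxcl14, a chemokine of epithelia and fibroblasts, read 7.36, 7.24 and 7.15 in 5XFAD and 7.72, 7.29 and 7.30 in wild type. Each of these 3 genes had overlapping groups.

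Ccl25, a ligand of the gut-homing receptor Ccr9, read 6.13, 6.08 and 6.44 in 5XFAD and 6.44, 6.53 and 6.39 in wild type. Its difference was -0.24 ± 0.12 (limma, adjusted p = 0.85), and 5XFAD replicate 3 reached into the wild-type range. Ccl27a, a skin chemokine, read 7.13, 6.98 and 6.85 in 5XFAD and 6.93, 6.66 and 6.97 in wild type. It was the only member with 2 probe sets. The dimmer one read 5.65, 5.71 and 5.94 in 5XFAD and 5.60, 5.70 and 5.51 in wild type, also higher in 5XFAD on average. Near-identical copies of Ccl27a exist, so its signal may be shared. Cxcl13, which draws B cells, read 5.85, 5.94 and 5.68 in 5XFAD and 5.89, 5.71 and 6.06 in wild type, with overlapping groups.

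The receptors above the median on every array, beside Cxcr4 and Cx3cr1, were Cxcr1, Cxcr3 and Ccr7. Cxcr1, a neutrophil receptor, read 6.25, 5.82 and 6.09 in 5XFAD and 5.82, 5.82 and 5.87 in wild type. Cxcr3, the receptor of activated T cells for Cxcl9 and Cxcl10, read 6.0016, 5.78 and 5.96 in 5XFAD and 6.05, 5.93 and 6.15 in wild type. Ccr7, which guides dendritic and naive T cells to lymph nodes, read 5.86, 5.90 and 6.12 in 5XFAD and 5.99, 5.83 and 5.97 in wild type. Groups overlapped in each, and the differences of Cxcr1 (0.21 ± 0.12) and Cxcr3 (-0.13 ± 0.11) did not pass (limma, adjusted p = 0.89 and 0.93). The Cxcr1 difference was 0.12 without 5XFAD replicate 1, and the Cxcr3 difference -0.07 without 5XFAD replicate 2. Ackr2, which clears inflammatory CC chemokines, read 6.62, 6.54 and 6.37 in 5XFAD and 6.53, 6.39 and 6.54 in wild type.

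Several inflammatory ligands varied more within the groups than between them. Of the members, 9 of 55 (16.4%) fell among the 10% of genes with the widest spread within groups: Cxcl9, Ccl5, Ccl8, Cxcl1, Ccl7, Ccl6, Cxcl10, Ccl22 and Ackr4. The narrowest 10% held 6 members (10.9%), among them Cxcl12, Cx3cl1 and Cx3cr1. Cxcl9 stood at percentile 99.8 of all genes by this spread. Apart from Ccl5, Ccl6 and Ccl7, these genes were named after their values were seen.

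Cxcl9, which interferon gamma induces and which draws T cells through Cxcr3, read 6.72, 4.81 and 5.30 in 5XFAD and 5.17, 6.57 and 6.08 in wild type. Cxcl10, which lies near it on chromosome 5 and binds the same receptor, read 5.82, 5.44 and 5.43 in 5XFAD and 5.41, 6.12 and 5.56 in wild type. Ccl8, in the mouse a ligand of Ccr8, read 5.75, 5.04 and 4.97 in 5XFAD and 5.20, 5.72 and 5.61 in wild type. In all 3 genes 5XFAD replicate 1 and wild type replicate 2 were the highest pair of arrays, 1 from each group. Their differences were -0.33 ± 0.47, -0.13 ± 0.19 and -0.26 ± 0.22, and none passed (limma, adjusted p from 0.93 to 0.96). The Cxcl9 difference was 0.07 without 5XFAD replicate 2, and the Cxcl10 difference 0.08 without wild type replicate 2. The T and NK cell list means were 5.52, 5.41 and 5.28 in 5XFAD and 5.57, 5.61 and 5.52 in wild type, with the highest array of each group the same as for Cxcl9. Of that list's 13 genes 4 were lower and 0 higher at an unadjusted p under 0.05 (limma), where 3.39% and 2.89% of all genes were. The part of this list in the Cxcl9, Cxcl10 and Ccl8 values was not tested.

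A different array stood out for other ligands. Cxcl1, a neutrophil attractant, read 5.48, 5.73 and 5.82 in 5XFAD and 5.65, 5.51 and 6.39 in wild type, so that wild type replicate 3 was highest, as it was for Ccl7 and Ccl2. Without that array the Cxcl1 difference was 0.10, against -0.17 with it. Wild type replicate 3 held the highest value of 15 of the 55 members and of 21.0% of all genes.

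**Figure D4:**
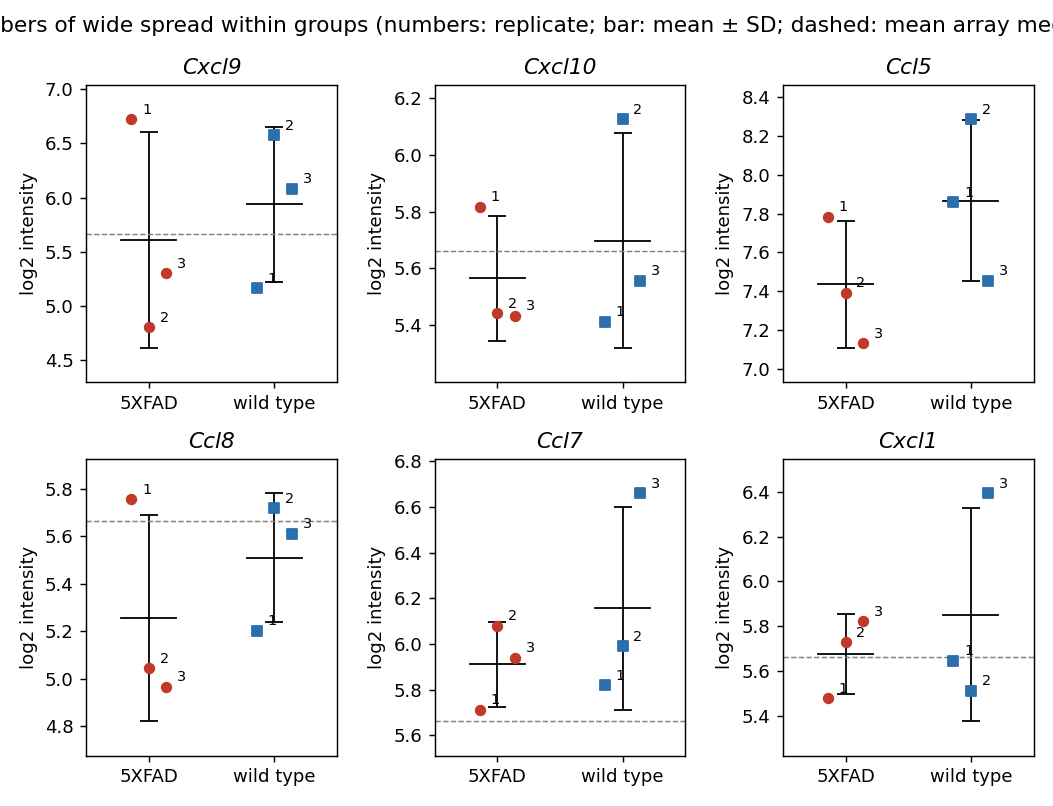
Log2 intensity (y axis) of 6 ligands of wide spread within groups, with 1 numbered point per replicate (5XFAD left, wild type right) and the mean ± SD of 3 arrays. 5XFAD replicate 1 and wild type replicate 2 are highest for Cxcl9, Cxcl10 and Ccl8, and wild type replicate 3 for Ccl7 and Cxcl1.

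The promoters of Cxcl9 and Cxcl10, a pair on chromosome 5 with the same highest arrays, are shown in the same way, with motif matches in capitals. Cxcl9 held a pair of 9-letter kappa B matches, a TATAAA run at bases -195 to -190 and an AP-1 match at bases 31 to 37. These bases are counted from the annotated start, so the TATAAA run lay far before it and the AP-1 match after it. Cxcl10 held kappa B matches of 9 and 10 letters, an ISRE match on the opposite strand and an AP-1 match. In Cxcl10 the 9-letter kappa B match lies inside a 10-letter one. Over all 32851 promoter windows of that length, the 9-letter kappa B motif occurred in 5.82%, the 10-letter one in 5.56%, ISRE in 3.44%, GAS in 8.30%, AP-1 in 7.81% and TATAAA in 13.6%. Of the 41 members with a promoter in the table, 8 held the 9-letter kappa B motif, 9 the 10-letter one, 2 ISRE (Cxcl10 and Cxcl14), 3 GAS, 7 AP-1 and 13 TATAAA. A match is a run of letters and not a shown binding site.
Cxcl9 (chr5:92328030-92328329, minus strand): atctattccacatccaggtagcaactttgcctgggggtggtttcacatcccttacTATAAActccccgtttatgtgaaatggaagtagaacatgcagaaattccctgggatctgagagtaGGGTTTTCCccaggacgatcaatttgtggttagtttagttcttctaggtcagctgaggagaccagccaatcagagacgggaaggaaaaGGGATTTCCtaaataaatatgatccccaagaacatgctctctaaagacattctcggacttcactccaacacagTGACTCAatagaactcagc
Cxcl10 (chr5:92348840-92349139, minus strand): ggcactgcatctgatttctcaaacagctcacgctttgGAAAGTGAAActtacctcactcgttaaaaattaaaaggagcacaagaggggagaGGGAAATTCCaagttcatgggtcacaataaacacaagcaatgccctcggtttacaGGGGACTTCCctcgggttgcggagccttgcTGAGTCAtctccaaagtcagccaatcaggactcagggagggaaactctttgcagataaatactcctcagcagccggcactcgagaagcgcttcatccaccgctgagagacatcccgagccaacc

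The members near the array median, above it on 1 to 5 arrays, were Ccr2, Cxcr5, Cxcl1, Cxcl9, Cxcl11, Ccl28, Cxcl10, Ccl8, Xcr1, Ccr10, Cxcr2 and Cxcl5. A negative difference was found in 10 of these 12, where 52.8% of all genes had one, and their median difference was -0.18. A difference between the groups itself helps to place a gene on both sides of the median, so nothing is read from that count. Members below the median on every array were the ligands Ccl1, Ccl12, Ccl17, Ccl20, Ccl22, Ccl24, Ccl26, Cxcl2, Cxcl3, Cxcl15 and Xcl1, the receptors Ccr1, Ccr3, Ccr4, Ccr6, Ccr8, Ccr9 and Cxcr6, and the atypical receptors Ackr1 and Ackr4. Ccl17 and Ccl22 with their receptor Ccr4, Ccl20 with Ccr6, and Cxcl2 and Cxcl3 were among them. Their differences ran from -0.32 to 0.25, with a median of -0.04, and Ccl12 was the 1 of these 20 with an unadjusted p under 0.05 (limma). Background can compress the differences of such dim genes, which was not tested here.

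Genes that act beside the chemokines were followed in 4 lists, and 0 of their 68 measured genes passed in limma after adjustment. Receptor signalling genes were bright, with 22 of 25 above the array median on every array. Of their differences 17 of 25 were positive, where 47.2% of all genes had a positive one. Rgs2, which dampens G protein signalling, read 7.97, 7.92 and 7.78 in 5XFAD and 7.41, 7.49 and 7.43 in wild type, and was the 1 gene of that list with an unadjusted p under 0.05. Its difference was 0.45 ± 0.10 (limma, adjusted p = 0.36), and it was 0.16 when all its probe sets were averaged. Vav1, a guanine exchange factor of leukocytes, differed by 0.21 ± 0.10, and Gnai3, an inhibitory G protein subunit, by -0.19 ± 0.10 (limma, adjusted p = 0.83 and 0.85).

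Of 20 inflammatory inducers 0 had an unadjusted p under 0.05 (limma), and 9 had a positive difference, where 47.2% of all genes had one. The genes of smallest p in that list were Il17a at -0.20 ± 0.14, Nfkb2 at -0.12 ± 0.10 and Tnfrsf1a at 0.12 ± 0.10 (limma, adjusted p from 0.92 to 0.93). Among 16 genes that present or cut chemokines, Sdc1, a heparan sulfate proteoglycan of epithelia and plasma cells, differed by 0.32 ± 0.13, Ctss, a protease of myeloid cells, by 0.22 ± 0.11 and Dpp4, which trims chemokine ends, by 0.30 ± 0.25 (limma, adjusted p from 0.77 to 0.93). Sdc1 was the 1 of the 16 under an unadjusted p of 0.05 (limma), and its difference was 0.20 without 5XFAD replicate 2. The Dpp4 difference was 0.05 without wild type replicate 3 and 0.63 without wild type replicate 2. Among 7 related genes outside the naming scheme, Mif, a cytokine that binds Cxcr4, differed by -0.23 ± 0.11, Cmtm3 by 0.21 ± 0.15 and the platelet chemokine gene Ppbp by -0.20 ± 0.20 (limma, adjusted p from 0.82 to 0.94). Without wild type replicate 1 the Ppbp difference was 0.06.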

How the data were processed

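Each array's deposited table holds log2 intensities that the authors had already normalized. The submitters' processing notes name RMA and Affymetrix Expression Console 1.1. RMA makes the arrays' distributions alike after a background correction and combines the probes of a set. The sources used here do not give the genome build or any pooling of animals. Total RNA of 3 5XFAD and 3 wild-type samples was labelled with biotin, 1 array per sample, so 3 arrays a group bound the precision. Groups and replicate numbers come from the sample titles.

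Of 33793 probe sets 23521 had 1 gene symbol, 1814 several and 8458 none, and only the first kind was used to name genes. The brightest probe set of each gene was kept (1082 genes had more than 1), which left 22180 genes. The 2 groups were fitted by lmFit and eBayes of limma 3.58.1 (R 4.3.3, two-sided, no covariate), with Benjamini-Hochberg adjustment over all genes, a threshold of 0.05 and 95% intervals from the moderated error. Members, lists and tests were chosen with earlier results of these data known. Values on every array are given for members above the array median on all arrays, for members with an unadjusted p under 0.05 and for the 4 of largest difference in each direction whose groups did not overlap. In each pathway list the 3 genes of smallest p are named, and members were left out of all lists. The fit was tested on simulated data. Same-numbered arrays of the groups did not deviate together (correlations of -0.06, -0.05 and 0.13 over all genes), so the numbers were not taken as pairs.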

Additional observations from a re-analysis of the deposited data

How the results depend on the processing

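In 14 alternatives to the fit (a replicate block, filters on dim genes, other normalizations and priors, array weights, averaged probe sets and each array left out), 0 members passed the adjusted threshold (limma). With the replicate block, 1 member was higher and 3 lower at an unadjusted p under 0.05, as without it, and Ccl3 had a limma adjusted p of 0.21. Counts of members at an unadjusted p under 0.05 ran from 1 to 3 higher and from 1 to 6 lower with each array left out. Leaving out 5XFAD replicate 1 gave 6 lower members, and leaving out wild type replicate 1 gave 1. The higher count reached 3 when 5XFAD replicate 3 or wild type replicate 3 was left out. For these alternatives the share of all genes at an unadjusted p under 0.05 is not given. Nothing is therefore read from the shifts in the member counts. The lower count was also 1 without the dimmest 50% of genes, where fewer members are tested, and 1 at an unadjusted p under 0.01. By groups that do not overlap, an alternative chosen after seeing the data, 4 were higher. The median difference of the members ran from -0.07 to -0.01 with each array left out and was 0.01 without the dimmest 50% of genes. Above the 60th percentile in place of the array median lay 13 members on all arrays, and above the median over genes 16.

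Over all genes, counts past the adjusted threshold ran from 3 to 19 higher and from 0 to 1 lower with each array left out (19 without wild type replicate 2), and were 9 higher with median centring. As lower, 2 genes passed without the dimmest 30% and 2 without the dimmest 50%, 3 when the prior was trended and robust, and 1 with quantile normalization again, with array weights and with averaged probe sets. Of 40 genes with a printed difference, 28 kept 1 sign under the alternatives in which they were tested (12 to 14 a gene, since the filters removed dim genes). The sign changed for Cx3cr1 with quantile normalization again (-0.0044) and median centring (-0.0027) and for Ccl6 with array weights (0.0287). With 1 array left out, differences ran from -0.0918 to 0.13 for Cxcl16, -0.0280 to 0.0488 for Cx3cr1, -0.88 to 0.0726 for Cxcl9, -0.0080 to 0.0873 for Cx3cl1, -0.0854 to 0.0424 for Ccl1, -0.21 to 0.22 for Ccl6, -0.13 to 0.0131 for Ccl9, -0.35 to 0.0582 for Ppbp, -0.28 to 0.0801 for Cxcl10, -0.41 to 0.0072 for Ccl7, -0.34 to 0.10 for Cxcl1 and -0.0119 to 0.24 for Ackr3. The cause of these shifts was not tested.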
